A study of Mus musculus with 9 samples.

Results

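Of the 4633 sites listed for Phf19 in mouse embryonic stem cells, 1088 (23.5%, exact 95% interval 22.3 to 24.7) shared no base with a listed site of Suz12 or of H3K27me3 from control cells. These are called off-list Phf19 sites below, and the other 3545 are called Phf19 sites on Polycomb. The share depends on how close sites are counted. With Phf19 sites within 1 kb of each other merged, 1078 of 3033 were off-list, a larger share. The members were chosen by that overlap alone, so their number, and the fact that they lie apart from both lists, describe the choice. A site missing from a list was not called in 1 library, which does not show that the protein or mark was absent.

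The sites came from chromatin immunoprecipitation followed by sequencing, in which DNA crosslinked to a protein or histone mark is pulled down with an antibody and mapped. All cells were E14Tg2A, an established mouse embryonic stem cell line grown feeder-free on gelatin with serum and LIF (leukemia inhibitory factor). The Phf19 list holds sites found in both of 2 biological replicates of wild-type cells, and the Suz12 list comes from 1 library of wild-type cells. H3K27me3 was listed from 1 library of cells carrying a random control hairpin (shRd, labelled wild type) and from 1 library of cells depleted of Phf19 by a hairpin against it (shPhf19). The rule thus set Phf19 and Suz12 of unmodified cells beside H3K27me3 of hairpin-carrying controls. The titles of both Phf19 libraries and of an IgG library also carry the tag (Hi). Those of the Suz12 and H3K27me3 libraries do not, and how this difference bears on the lists was not tested.

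Phf19 is one of the Polycomb-like proteins, accessory subunits of Polycomb repressive complex 2 (PRC2). Its Tudor domain binds histone H3 methylated on lysine 36, a mark of transcribed genes. Suz12 is a core subunit that holds PRC2 together, and the complex places H3K27me3, the mark of silenced developmental genes in stem cells. The comparisons below ask what the Phf19 sites without a listed PRC2 subunit or mark look like, in width, surroundings and spacing.

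All lists held positions only, with no height, score or read count, so read depth is unknown and strength could not be compared. The lists held 8054 Suz12, 8280 control H3K27me3 and 1180 shPhf19 H3K27me3 sites. There is no list per replicate, so no value below has a replicate error. Intervals are 95% intervals that cover counting error and take each site as independent of its neighbours, which need not hold. Chromosome and base positions are those of the lists, for which the submitters' processing notes name the build mm9.

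The off-list sites were narrow and alike in width. Their median was 374 bp (interval 369 to 381), with quartiles of 306 and 433 bp and extremes of 165 and 994 bp. Phf19 sites that overlapped both Suz12 and H3K27me3 had a median of 582 bp (563 to 595, n = 3199), quartiles of 422 and 946 bp and a widest site of 8335 bp. The intervals of these medians lie well apart, and the off-list median was the smaller on 19 of 19 autosomes. Across autosomes it ranged only from 351 to 396 bp, against 486 to 645 bp for sites on Polycomb.

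Partial overlap with Polycomb went with different widths. The 147 Phf19 sites on H3K27me3 without Suz12 had a median of 392 bp (378 to 423), whose interval meets that of the off-list sites. Their upper tail was longer, however, with a 95th percentile of 691 bp against 513 bp. The 199 sites on Suz12 without H3K27me3 were wider, with a median of 453 bp (438 to 521) and a 95th percentile of 2014 bp. In median width the sites with the mark alone lay nearest to the off-list sites, and the tail was longest at the sites with Suz12.

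Of all Phf19 sites, 44.9% were wider than 500 bp, but 63 of the 1088 off-list sites were (5.79%). Among the sites on both lists 59.1% were wider than that, and among those on H3K27me3 alone 34 of 147 (23.1%). The latter exceeded the off-list share by 17.3 percentage points (Newcombe interval 11.1 to 24.9). None of the off-list sites exceeded 994 bp, a width that 780 sites on Polycomb passed. Off-list sites made up 23.5% of the list by number and 13.0% of its length, covering 404 kb.

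**Figure D1:**
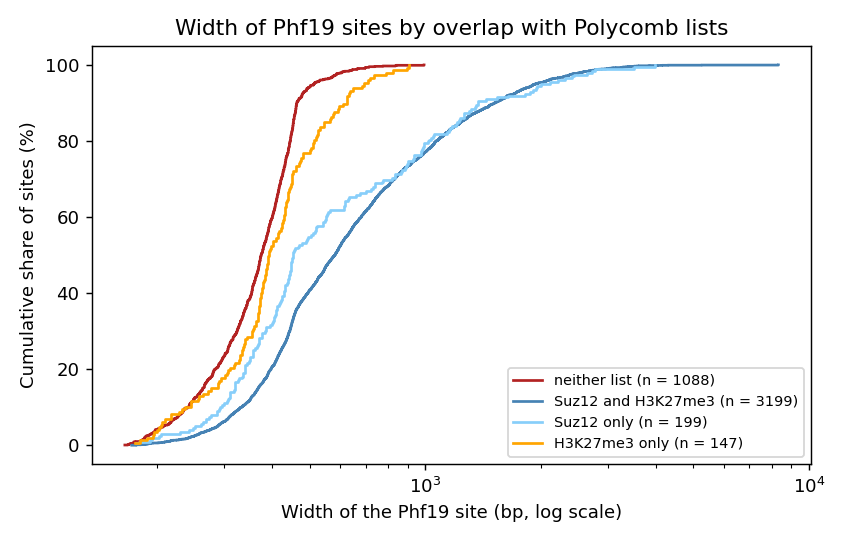
Cumulative share of Phf19 sites (%) against site width (bp, log scale), 1 line for each kind of overlap with the Suz12 and control H3K27me3 lists. The line for the 1088 sites on neither list rises early and ends at 994 bp, while that of the 3199 sites on both reaches 8335 bp.

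Seen from the whole Phf19 list, the off-list share depended on width. In the narrowest of 5 width classes, 165 to 353 bp, 46.7% of sites were off-list (43.5 to 50, 438 of 937). In the next classes the share was 40.6%, 25.5% and 4.32%. In the widest, 884 to 8335 bp, 1 of 927 sites was off-list (0.108%, 0.00273 to 0.600). A wider site meets a neighbouring site more readily, and the part of this trend that comes from width alone was not tested.

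That 1 site was the widest off-list site, at chromosome 10, 120872157 to 120873151, 994 bp long. It lay 38.5 kb from the nearest H3K27me3 site and 83.0 kb from the nearest Suz12 site. The next in width lay at chromosome 1, 11403764 to 11404605 (841 bp, 419 kb from either list), and at chromosome 4, 127007645 to 127008483 (838 bp, 161 kb from Suz12). The remaining pair of the 5 widest was on chromosome 9, at 49294841 to 49295616 (775 bp) and 114450025 to 114450765 (740 bp). Their nearest Polycomb sites were 144 kb and 172 kb away, so none of the 5 widest off-list sites bordered a listed Polycomb site.

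Most off-list sites lay more than 10 kb from Polycomb (949 sites, 87.2%). The median gap to the nearest Suz12 or control H3K27me3 site was 76.3 kb (69.0 to 84.9), and the quartiles were 25.9 and 176 kb. To Suz12 alone the median was 96.3 kb (86.8 to 106) and to H3K27me3 alone 102 kb (91.4 to 112). The rule set the lower end of these gaps, so they are descriptions. They were not compared with the gaps of evenly spread sites, so they do not show whether off-list sites lay unusually far from Polycomb. By autosome the median gap ran from 49.9 kb on chromosome 11 to 139 kb on chromosome 14.

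A minority lay close by. There were 31 off-list sites within 1 kb of a Polycomb site (2.85%, 1.94 to 4.02) and 139 within 10 kb (12.8%, 10.8 to 14.9). Within 100 kb there were 639 (58.7%, 55.7 to 61.7), and 13 sites had none within 1000 kb. Of the 139 within 10 kb, 77 had both a Suz12 and an H3K27me3 site in that range, 28 had Suz12 alone and 34 H3K27me3 alone.

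**Figure D2:**
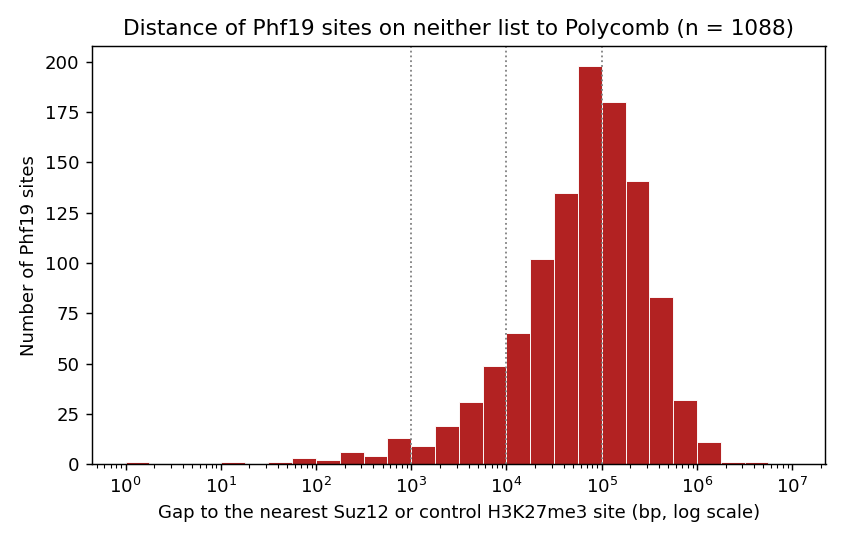
Number of off-list Phf19 sites against the gap to the nearest Suz12 or control H3K27me3 site (bp, log scale, 4 bars to each factor of 10), with dotted lines at 1, 10 and 100 kb. The counts peak near the median of 76.3 kb, and 31 of 1088 sites lie left of the first line.

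Width differed little by distance. Off-list sites within 1 kb of Polycomb had a median width of 389 bp (348 to 424), those at 1 to 10 kb 374 bp (357 to 404), those at 10 to 100 kb 370 bp (361 to 380) and those farther away 378 bp (368 to 388). All 4 intervals overlap. Off-list sites at the edge of a Polycomb domain and those far from one were thus not told apart by width.

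At the border of the rule, 6 off-list sites had a Polycomb site within 100 bp, at gaps of 1 to 82 bp, and were 219 to 490 bp wide. Just across it, 7 Phf19 sites shared at most 100 bases with a Polycomb site, 1 to 69 bases in fact, and were 356 to 461 bp wide. The nearest off-list site lay at chromosome 8, 70800206 to 70800511, 1 bp from an H3K27me3 site and 458 kb from Suz12. The next lay 13 bp from H3K27me3 and 330 bp from Suz12 (chromosome 10, 80799481 to 80799835), and 49 bp from Suz12 with H3K27me3 234 kb away (chromosome 12, 33721248 to 33721467). The other two of the nearest 5 were at chromosome 16, 34262884 to 34263374, 59 bp from H3K27me3, and chromosome 9, 98324577 to 98324867, 68 bp from Suz12. Few sites lay at the border, and other definitions of overlap moved the number of off-list sites little, to 1100 where at least 50% of the shorter site had to be shared and to 1057 where a Polycomb site within 1 kb counted.

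The site farthest from Polycomb lay on the X chromosome, at 85360766 to 85361144, with 5.17 Mb to the nearest Suz12 or H3K27me3 site. The next was at chromosome 1, 104003750 to 104004185, with 2.66 Mb. The others of the farthest 5 were at chromosome 18, 27590985 to 27591281 (1.68 Mb), chromosome 3, 42415316 to 42415736 (1.66 Mb), and chromosome 14, 38741571 to 38741759 (1.54 Mb). These 5 sites were 188 to 435 bp wide, within the range of the rest.

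Suz12 and control H3K27me3 sites that overlap were joined into 9618 Polycomb blocks, to ask what kind of Polycomb region lay beside the near off-list sites. The 139 sites within 10 kb had 139 different nearest blocks. Of all blocks 17.4% overlapped a Phf19 site, and of these 139 blocks 33 did (23.7%, 16.9 to 31.7). Against the other blocks the difference was 6.41 percentage points (0.0533 to 14.2), an interval that just leaves out 0. The blocks beside off-list sites had a median width of 2050 bp and the other blocks 2169 bp, and 50.4% and 49.3% of them held both Suz12 and H3K27me3.

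The second feature of off-list sites was their isolation from other Phf19 sites. The rule did not use the gaps between Phf19 sites, but it bears on them, since every Phf19 site that touches Polycomb was left out. Their median gap to the next Phf19 site of any kind was 206 kb (182 to 222, n = 1087, since the Y chromosome held a single Phf19 site). For Phf19 sites on Polycomb it was 233 bp (219 to 251, n = 3545). On 19 of 19 autosomes the off-list median was the larger, at 119 to 416 kb against 0.154 to 0.576 kb.

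Of all Phf19 sites, 60.9% had another within 10 kb. Of the off-list sites, 67 did (6.16%, 4.80 to 7.75), and of the sites on Polycomb 2756 did (77.7%, 76.3 to 79.1). The difference, off-list minus Polycomb, was -71.6 percentage points (-73.4 to -69.5). It was -55.7 points (-63.3 to -47.5) against sites on H3K27me3 alone, of which 61.9% had such a neighbour, and -68.2 points (-73.9 to -61.5) against sites on Suz12 alone, of which 74.4% did. In isolation the off-list sites differed from all 3 kinds.

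**Figure D3:**
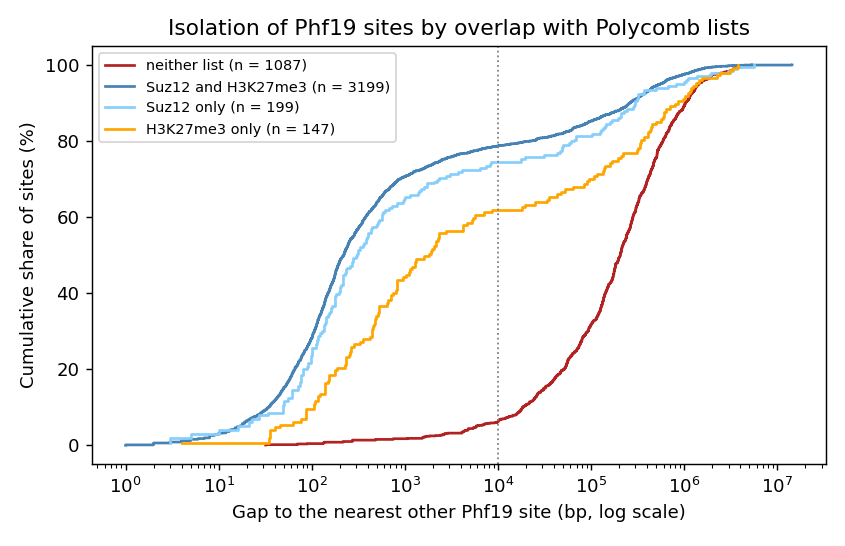
Cumulative share of Phf19 sites (%) against the gap to the nearest other Phf19 site (bp, log scale), by overlap with the Suz12 and control H3K27me3 lists, with a dotted line at 10 kb. At that line the curve of the off-list sites stands at 6.16% and that of the sites on both lists at 78.7%.

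The difference in isolation was also seen among sites of like width. Within each of the 4 width classes that held at least 20 off-list sites, 5.00% to 6.75% of them had a Phf19 neighbour within 10 kb, against 72.4% to 79.3% of the sites on Polycomb in the same class. The difference was -69.0, -67.9 and -65.6 percentage points in the 3 narrowest, which held 438, 372 and 237 off-list sites, and -74.3 in the class above, which held 40. This split was chosen after the data were seen.

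Phf19 sites on Polycomb often shared a Polycomb block. Of the 2756 Phf19 sites on Polycomb with a neighbour within 10 kb, 2666 (96.7%) lay on the same block as their nearest neighbour. By the rule an off-list site cannot share a block with a neighbour. The differences in isolation above, also those within width classes, thus follow in part from the choice. Sites no more than 10 kb apart were therefore also counted as groups. Among 1038 groups made only of off-list sites, 1021 held a single site (98.4%, 97.4 to 99.0). Among 1549 groups made only of sites on Polycomb, 789 did (50.9%, 48.4 to 53.5), and the largest held 35 sites. The difference was 47.4 points (44.8 to 50), which likewise follows in part from the choice. Another 32 groups mixed both kinds and held 32 off-list sites. Counting these mixed groups with each kind, a choice made after the data were seen, gave 95.4% (94.0 to 96.6) of 1070 groups and 49.9% (47.4 to 52.4) of 1581.

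Read the other way, isolated Phf19 sites were mostly off-list. Of 1810 Phf19 sites with no other within 10 kb, 1021 were off-list (56.4%, 54.1 to 58.7), whereas 2.37% (1.84 to 3.0) of the 2823 sites with a neighbour were. Median width differed between both kinds among the isolated sites too. Isolated off-list sites had a median of 374 bp (369 to 382), and the 789 isolated sites on Polycomb had 488 bp (468 to 517). Their quartiles, 306 to 433 bp and 397 to 746 bp, overlapped.

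Of the 67 off-list sites with a Phf19 neighbour, 32 stood beside a Phf19 site on Polycomb and 35 beside another off-list site, and none beside both. All 32 were among the 139 sites within 10 kb of Polycomb, which follows almost by construction. None of these 139 had another off-list site within 10 kb, whereas 35 of the 949 sites farther from Polycomb did. Over the whole list, the nearest Phf19 site of an off-list site was itself off-list for 486 of 1087 sites (44.7%), and for 307 of the 3545 sites on Polycomb (8.66%). The median gap was 514 kb to the next off-list site and 389 kb to the next Phf19 site on Polycomb.

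Stretches of neighbouring off-list sites were few and short. With gaps of at most 10 kb, 35 off-list sites formed 16 pairs and 1 trio, and the other 1053 stood without an off-list neighbour. The trio lay at chromosome 14, 21469999 to 21481429, where 3 sites of 403 to 453 bp spread over 11.4 kb, 70.8 kb from Polycomb. Among the pairs, the 4 shortest are named. They were at chromosome 18, 4923630 to 4924229 (599 bp in all), chromosome 6, 146290488 to 146291296 (808 bp), chromosome 11, 97772586 to 97773445 (859 bp), and chromosome 1, 135820572 to 135821450 (878 bp). Neither the trio nor any of the pairs had a Phf19 site on Polycomb within 10 kb.

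The density of off-list sites differed between chromosomes. Autosomes held 0.438 off-list sites per Mb and 1.42 Phf19 sites on Polycomb per Mb. Chromosome 11 had the highest density, 0.804 per Mb (98 sites, Poisson interval 0.653 to 0.980), followed by chromosome 19 with 0.603 (37 sites, 0.425 to 0.831) and chromosome 10 with 0.546 (71 sites, 0.427 to 0.689). The lowest autosomal values were 0.248 on chromosome 14 (31 sites, 0.168 to 0.351) and 0.251 on chromosome 15 (26 sites, 0.164 to 0.368). The ratio of highest to lowest was 3.25, and 2.44 without chromosome 11. For Phf19 sites on Polycomb it was 2.67 over all autosomes, so a spread of this order was not particular to off-list sites. Only chromosomes 11, 14 and 15 had intervals that left out the autosomal value, with no adjustment for the 19 autosomes, so the order of the others is not resolved.

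**Figure D4:**
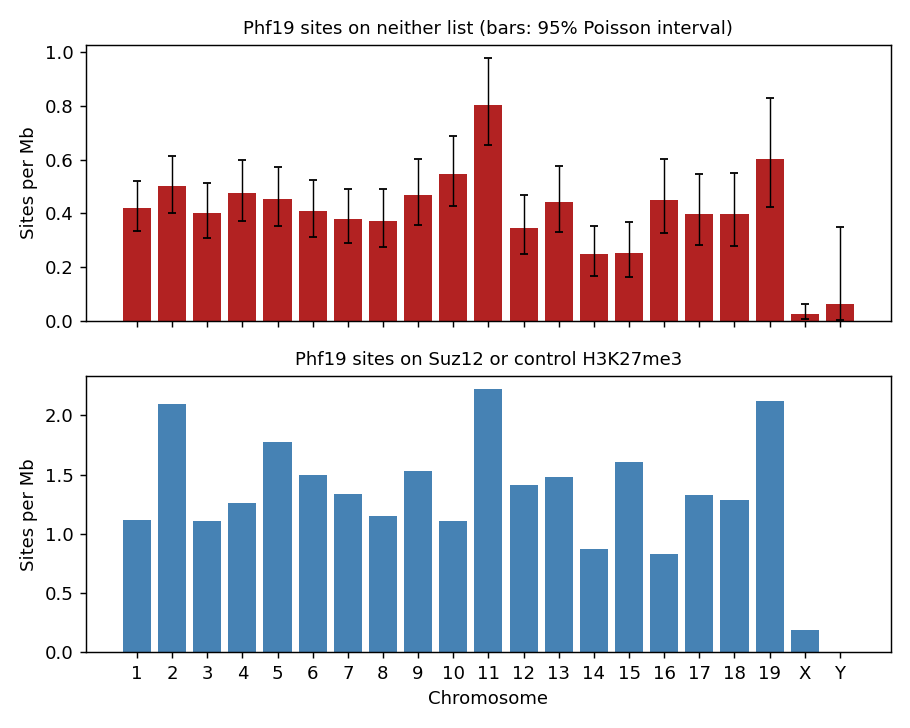
Phf19 sites per Mb of chromosome length (mm9), above for off-list sites with 95% Poisson intervals and below for Phf19 sites on Suz12 or control H3K27me3; the 2 vertical scales differ. Chromosome 11 stands highest in both panels, at 0.804 and 2.22 per Mb, and X lowest among those with both kinds of site.

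Chromosomes also differed in which part of their Phf19 sites was off-list. The autosomal share was 23.6% (22.3 to 24.8). On chromosome 11 it was 26.6% (22.1 to 31.4), so its high density of off-list sites went with a high density of Phf19 sites on Polycomb (2.22 per Mb). The share was highest on chromosome 16 (34.9%, 26.6 to 43.9) and chromosome 10 (33.0%, 26.8 to 39.7). It was lowest on chromosome 15 (13.5%, 8.99 to 19.1) and was also low on chromosome 2 (19.3%, 15.8 to 23.1). These 4 intervals leave out the autosomal share, again without adjustment. Chromosome 15 held few off-list sites beside 1.61 sites on Polycomb per Mb, above the autosomal average, whereas chromosome 14 was low in both kinds.

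Across the 19 autosomes, the density of off-list sites went with that of Suz12 sites, with Pearson's r of 0.66 and Spearman's rho of 0.50. Without chromosome 11 these were 0.32 and 0.41, so r rested largely on that chromosome. With the density of control H3K27me3 sites, r was 0.63 and rho 0.37, and without chromosome 11 they were 0.34 and 0.26. With the density of Phf19 sites on Polycomb, r was 0.60 and rho 0.38, and without chromosome 11 they were 0.42 and 0.27. For Phf19 sites on Polycomb, r with Suz12 density was 0.87, and 0.85 without chromosome 11. Such sites overlap Suz12 by definition in most cases. The values describe chromosomes, which share length, base composition and gene content.

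The sex chromosomes held almost no off-list sites. There were 4 on X, or 0.0240 per Mb (0.00654 to 0.0615), and 1 on Y. Relative to autosomes, X had 0.0548 times the density of off-list sites, 0.135 times that of Phf19 sites on Polycomb, 0.464 times that of Suz12 sites and 0.226 times that of control H3K27me3 sites. The off-list share on X was 11.1% of 36 Phf19 sites, with an interval of 3.11 to 26.1 that holds the autosomal share. All lists were thus thinner on X, the Phf19 sites more than the others. These densities are per Mb of chromosome length, not corrected for the copy number or read depth of X, whose part was not tested. The single Phf19 site of the Y chromosome, at 2890261 to 2890641, was off-list.

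At a finer scale, off-list sites were denser where Polycomb was denser, although they touched none of it. Of 1088 sites, 1084 lay in a gap between Polycomb blocks, in 922 of the 9597 gaps. Gaps up to 20 kb held 1.44 off-list sites per Mb (20 sites in 13.9 Mb), gaps of 20 to 100 kb 0.841, gaps of 100 to 300 kb 0.759, gaps of 300 to 1000 kb 0.514 and longer gaps 0.179 (199 sites in 1109 Mb). The longest gaps include unsequenced and unmappable stretches, where no site can be listed.

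Within their gaps, off-list sites fell somewhat more often beside the Polycomb edges than farther in. No interval was computed for these shares. When each gap was divided into 5 equal parts by relative distance from its nearer edge, 24.3% of the 1084 sites fell in the outermost part and 18.5%, 20.8%, 19.2% and 17.2% in the parts further in, where an even spread would put 20% in each.

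Windows of 1 Mb, drawn from the same sites and blocks, gave the same picture. They cover X and Y too, and those without a block can also hold unsequenced or unmappable stretches. The 643 windows without a Polycomb block held 48 off-list sites, 0.0747 per window. Windows with 1 to 5 blocks held 0.407, those with 6 to 10 blocks 0.717 and the 175 windows with more than 10 blocks 0.840. Phf19 sites on Polycomb numbered 0.994, 2.70 and 5.36 per window in the last 3 classes, a steeper gradient that follows in part from having more blocks to lie on. Windows without any block held 4.41% of the off-list sites, and those with 1 to 5 blocks 52.2%.

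**Figure D5:**
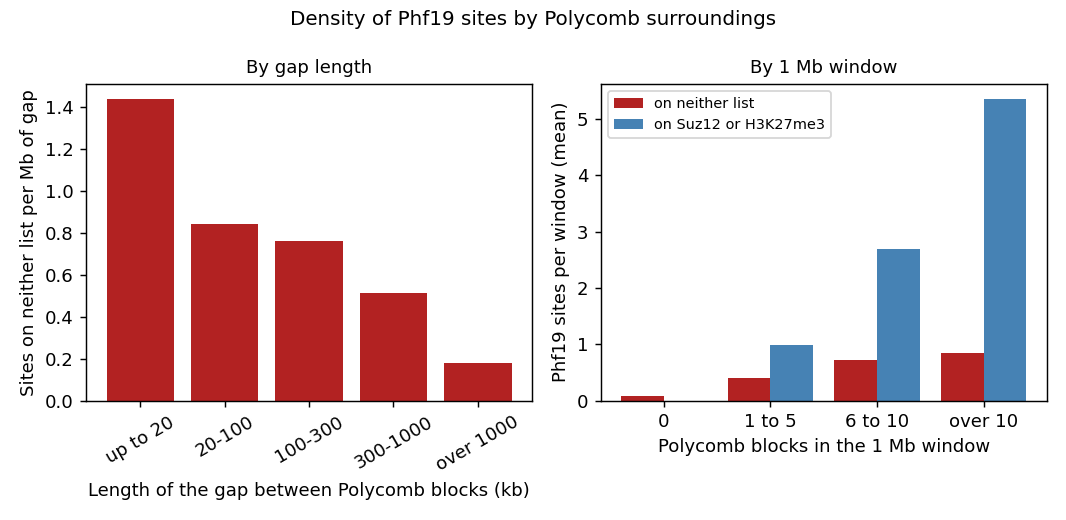
Left, off-list Phf19 sites per Mb of gap by the length of the gap between Polycomb blocks (kb). Right, mean number of Phf19 sites per 1 Mb window by the number of Polycomb blocks in the window; off-list sites are fewest in gaps over 1000 kb (0.179 per Mb) and in windows without a block (0.0747).

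No window held many off-list sites. Of 2665 windows, 594 held 1, 163 held 2, 36 held 3, 10 held 4 and 4 held 5. Those with 5 were at chromosome 1, 134000001 to 135000000, chromosome 3, 79000001 to 80000000, chromosome 12, 113000001 to 114000000, and chromosome 14, 21000001 to 22000000. The window on chromosome 14 contains the trio given above. The windows on chromosomes 3 and 14 held 0 Phf19 sites on Polycomb and 1 and 2 Polycomb blocks, whereas those on chromosomes 1 and 12 held 4 and 3 such sites and 12 and 10 blocks. The fifth place was shared by the 10 windows with 4 sites. By contrast, a single window held up to 54 Phf19 sites on Polycomb, and the 167 windows with more than 5 held 47.9% of all such sites.

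The last comparison set the off-list sites beside H3K27me3 in Phf19-depleted cells, a list the rule did not use. Of all Phf19 sites, 20.7% overlapped an shPhf19 H3K27me3 site. Of the off-list sites 2 of 1088 did (0.184%, 0.0223 to 0.662), and of the sites on Polycomb 956 of 3545 (27%, 25.5 to 28.5), a difference of -26.8 points (-28.3 to -25.3). The lists are not independent, because 86.2% of shPhf19 sites lay on a control H3K27me3 site, which off-list sites avoid by choice. The control and shPhf19 libraries carry different antibody catalogue numbers in the labels, and each is 1 library.

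Sites on Suz12 without control H3K27me3 avoid the control mark as well, and 74 of these 199 overlapped an shPhf19 site (37.2%, 30.5 to 44.3). Against them the difference of the off-list sites was -37.0 points (-43.9 to -30.6). The rule itself set these sites apart by Suz12, so this difference in part describes the choice. Few off-list sites were even near the mark in depleted cells, with 12 within 10 kb (1.10%, 0.571 to 1.92) and a median gap of 1030 kb. The off-list sites were thus, with 2 exceptions, without listed H3K27me3 in the depleted cells as well.

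Both exceptions lay next to Suz12. One, at chromosome 5, 102089606 to 102089886 (280 bp), was 257 bp from a Suz12 site, 4.54 kb from a control H3K27me3 site and 90 bp from a Phf19 site on Polycomb. The other, at chromosome 15, 102834335 to 102834775 (440 bp), was 456 bp from Suz12, 19.6 kb from control H3K27me3 and 1.07 kb from a Phf19 site on Polycomb. Neither remained off-list when a Polycomb site within 1 kb counted as overlapping.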

How the data were processed

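The deposited files are lists of chromosome, start and end positions, a unit with no score, signal or count, so other measures of site strength were not used here. Per the submitters' processing notes, Bowtie 0.12.7, MACS 1.4.1 and mm9 were used, without stated roles; per the series' design text, the authors kept Phf19 sites present in both replicates. How the ends of a shared site were set, the threshold and the control library are not given in the files or labels; each could bear on width.

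Width was end minus start, overlap at least 1 shared base, and distance the gap between edges. Lengths of mm9 chromosomes came from GenomeInfoDb 1.38.1. Shares carry exact Clopper-Pearson intervals, differences of shares Newcombe intervals, medians order-statistic intervals and densities exact Poisson intervals. No p-value was computed. The named sites followed a rule: the 5 widest, farthest and nearest off-list sites, the 5 stretches and 1 Mb windows with the most (ties by span), and those on shPhf19 sites. Stretches tied at 2 sites, and 4 windows were named because 10 tied for the fifth place; the sites on X and Y were added after the data were seen. Members, rule and comparisons were chosen with earlier results of these data known. No genes or sequences are given, since the reference tables used another build than mm9. Overlap counts equalled those of bedtools 2.31.1 in 3 of 3 cases, and gaps were tested on simulated data. Python 3.11.15, pandas 2.3.3, scipy 1.17.1 and statsmodels 0.14.6 were used. The H3K36me3, H3K36me2 and IgG samples were not analysed here.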

Additional observations from a re-analysis of the deposited data

How the results depend on the processing

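Of 61 alternatives to 6 results, 34 stayed inside the reported value's interval (within 1.5 times it for the number of sites and the density ratio) and 27 moved; the cause was not tested unless given here. At or above the median Phf19 width, 126 of 2331 Phf19 sites were off-list. Over the whole list 1088 of 4633 were, so the off-list share fell along with the number, as in the width classes above. The median width of the 126 sites, 500 bp, was raised by the filter itself. Of these sites 17.5% (11.3 to 25.2) lay within 10 kb of Polycomb, 3.17% (0.872 to 7.93) within 10 kb of Phf19 and 0% (0 to 2.89) on shPhf19 sites. These intervals hold the values of all off-list sites. The density ratio was 12.3, which rests on small counts per chromosome. With control H3K27me3 alone as Polycomb the median width was 384 bp, and 16.2%, 16.7% and 5.91% were the shares near Polycomb, near Phf19 and on shPhf19 sites; with Suz12 alone they were 18.0%, 12.8% and 1.54%, since sites on the other list then count as off-list. With Polycomb sites at or above median width they were 10.0%, 8.96% and 0.740%. With Polycomb within 1 kb counted as overlap, 10.2% lay within 10 kb of Polycomb and 0% on shPhf19 sites. Merging Phf19 sites within 1 kb left 1078 of 3033 off-list, so the number stayed but the share rose, and gave 4.55% near Phf19. At 1, 5, 50 and 100 kb the share near Polycomb was 2.85%, 7.35%, 38.1% and 58.7%, and that near Phf19 1.75%, 4.41%, 19.9% and 31.7%. Leaving out chromosome 11 was added after the data were seen. No paired analysis was possible because the lists carry no replicate numbers, and leaving out a Phf19 replicate was not run, since 1 list of shared sites was used. Without depth, sites just under the peak threshold cannot be told from absent ones.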

Other observations

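Widths of Phf19 sites bunched below about 465 bp, a pattern noticed after the data were seen. Of the off-list sites, 138 were 441 to 465 bp wide (12.7%) and 31 were 466 to 490 bp wide (2.85%). The same step was smaller in Phf19 sites on Polycomb, with 251 (7.08%) and 121 (3.41%). Below the step, 116 off-list sites fell in each of the ranges 391 to 415 and 416 to 440 bp.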
